A study of Mus musculus with 6 samples.

Results

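Cxcl1, Cxcl2, Cxcl3 and Cxcl5, which encode CXC chemokines that draw neutrophils, and Cxcr2, which encodes their receptor, were examined in mouse macrophages given lipopolysaccharide (LPS, the outer membrane glycolipid of Gram-negative bacteria, which Toll-like receptor 4 recognises). All probe sets that map to these 5 genes and to no other gene were taken, which gave 5 of 18193 genes and 7 of the 45037 probe sets that are not controls. Cxcl1 had 3 of them and each of the other genes had 1. Each of 6 samples was hybridised to its own Affymetrix expression array: Trib1 knockout macrophages with LPS (n = 2, called knockout-labelled 1 and 2), wild-type macrophages of the Trib1 series with LPS (n = 2, wild type 1 and 2), and wild-type macrophages with LPS (n = 1) or with medium (n = 1), which are called the LPS pair and, per the series description, define LPS-inducible genes. Trib1 encodes a catalytically weak kinase-like adaptor through which C/EBP proteins are marked for degradation. Where the macrophages came from is not in the labels, nor are strain, sex, age, dose, time, the deleted allele or the cells that lack it, nor any statement that arrays of 1 genotype come from separate animals. The p-values below therefore measure only the spread between these samples, which may be technical.

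These chemokines carry a glutamate-leucine-arginine motif ahead of their first cysteines, and through CXCR2, a G protein-coupled receptor, they lead neutrophils out of blood vessels and toward infected tissue. Macrophages and stromal cells transcribe the ligand genes within a short time of Toll-like receptor signalling, largely through NF-kB, and the messenger RNAs are short-lived. Neutrophils are the main carriers of CXCR2 in blood. In the mouse the ligand genes lie together on chromosome 5, in the annotated order Cxcl5, Ppbp, Pf4, Cxcl3, Cxcl15, Cxcl1 and Cxcl2, while Cxcr2 lies on chromosome 1.

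RefSeq promoter windows (GRCm38.p6, 250 bases before to 50 after the annotated start) were at hand for Cxcl1, Cxcl2, Cxcl3 and Cxcr2. The 250 bases before the start are shown for the 3 genes with the highest ratios of LPS over medium, with matches to a kappaB-type motif (GGG, then any 3 bases, then TTCC), on either strand, in capitals.
Cxcl1 promoter, chr5:90890995-90891244, + strand: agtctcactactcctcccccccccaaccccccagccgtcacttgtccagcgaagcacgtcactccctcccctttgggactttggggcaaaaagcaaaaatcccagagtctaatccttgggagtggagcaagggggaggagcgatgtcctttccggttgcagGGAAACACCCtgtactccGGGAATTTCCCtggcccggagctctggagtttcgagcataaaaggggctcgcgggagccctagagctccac
Cxcl2 promoter, chr5:90903649-90903898, + strand: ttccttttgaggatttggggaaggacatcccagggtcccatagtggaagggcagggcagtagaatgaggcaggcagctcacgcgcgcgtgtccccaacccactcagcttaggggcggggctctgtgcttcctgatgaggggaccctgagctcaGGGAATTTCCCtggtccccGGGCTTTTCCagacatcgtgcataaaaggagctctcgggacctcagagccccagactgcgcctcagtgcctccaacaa
Cxcl3 promoter, chr5:90785851-90786100, + strand: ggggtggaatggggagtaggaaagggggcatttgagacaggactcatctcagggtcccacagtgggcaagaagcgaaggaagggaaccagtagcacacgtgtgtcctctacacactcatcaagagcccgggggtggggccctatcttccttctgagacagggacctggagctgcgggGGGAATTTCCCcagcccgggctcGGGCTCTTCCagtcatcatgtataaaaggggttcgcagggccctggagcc

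All 3 windows held the same 11 letters, GGGAATTTCCC, which match the motif on both strands. These letters spanned bases -71 to -61 before the start in Cxcl1, -97 to -87 in Cxcl2 and -73 to -63 in Cxcl3. A further match lay beside it in each window, at -89 to -80 in Cxcl1, -78 to -69 in Cxcl2 and -50 to -41 in Cxcl3. Of all 32851 promoter windows of the same 300 bases, 5.56% held a kappaB-type match on either strand. Of the other motifs searched, also on both strands, TTNNGNAA (C/EBP type) was found in the window of Cxcl2 and in 40.7% of all windows, TATAA (TATA type) in that of Cxcl3 and in 24.9%, and TGANTCA (AP-1 type) in none of the 4 and in 7.81%. The window of Cxcr2 held none of these 4 sets of letters. A match describes letters only.

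**Figure D1:**
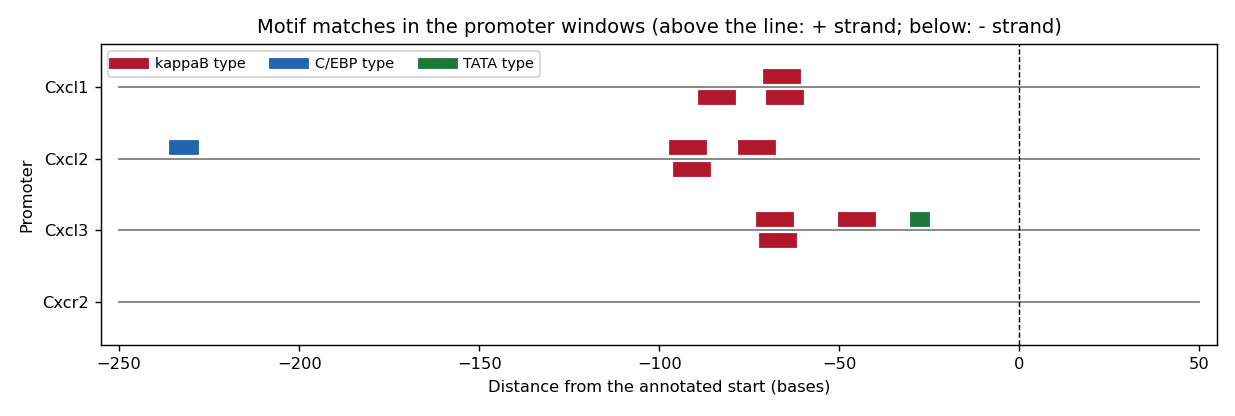
Motif matches in the promoter windows of Cxcl1, Cxcl2, Cxcl3 and Cxcr2, by distance in bases from the annotated start (dashed line). Boxes above a line are matches on the + strand and boxes below it on the - strand. Cxcl1, Cxcl2 and Cxcl3 each have a kappaB-type match on both strands between bases -97 and -61, and Cxcr2 has no match.

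Intensity values were scaled to a common trimmed mean of 234, and a floor was set at 29.9, the 40th percentile of all values, below which values have no order. The share of probe sets above it ran from 57.9% to 63.0% per array. As deposited, the LPS pair had a trimmed mean of 500 on each array, and the Trib1-series arrays had trimmed means between 95.5 and 107. The LPS pair also differed from the Trib1-series arrays in sex-linked transcripts. Xist (1427262_at) measured 980.5 with LPS and 1616 in medium, against at most 5.56 on the 4 Trib1-series arrays. By 1436936_s_at it measured 859.0 and 850.8, against 58.2 to 120.4. Eif2s3y (1417210_at), on the Y chromosome, lay under the floor on the LPS pair and between 218.8 and 534.2 on the others. A further probe set of each gene, 1427263_at for Xist and 1431642_at for Eif2s3y, lay under the floor on all 6 arrays. The targeted gene did not check the labels. By 1424880_at, Trib1 measured 88.1 and 20.9 on the knockout-labelled arrays, against 17.9 and 17.5 on the wild-type arrays of the Trib1 series, and 189.3 with LPS and 383.5 in medium in the LPS pair. Knockout-labelled 1 thus lay above both libraries labelled wild type, which were under the floor although the probe set gave a signal in the LPS pair. By 1424881_at it measured 32.3 and 38.7 against 20.2 and 63.0. The labels do not place either probe set relative to the deletion, and wild type 1 and 2 below are libraries called so by label only. All 12 macrophage identity markers, among them Adgre1, Csf1r and Cd68, lay above the floor on all 6 arrays.

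With LPS, wild-type macrophages of the LPS pair showed higher signals of Cxcl1, Cxcl2 and Cxcl3 than with medium, and the same held on every LPS array of either genotype. Cxcl5 was low with LPS and under the floor in medium, and Cxcr2 was at or near the floor throughout.

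Cxcl1 (KC, a main neutrophil chemoattractant of the mouse) had a scaled intensity of 12004 with LPS in the LPS pair, against 383.9 in medium, by 1419209_at, which is 31.3-fold higher. Its other probe sets gave 5085 against 331.4 (1441855_x_at, 15.3-fold) and 7847 against 279.1 (1457644_s_at, 28.1-fold). Affymetrix marks probe sets with the endings x and s where probes can also match other transcripts, so these values may include such signal. Pearson r between the 3 probe sets lay between 0.977 and 0.994 over the 6 arrays, of which 1 is the far lower medium array. They did not place the LPS arrays in 1 order: knockout-labelled 1 was highest by 1419209_at and below knockout-labelled 2 and wild type 2 by the other probe sets.

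Cxcl2 (1449984_at; MIP-2, a chemokine of the same receptor) measured 20662 with LPS and 1634 in medium, 12.6-fold higher. It was thus already well above the floor without LPS. On 4 of the 5 LPS arrays, all but wild type 1, it lay between 19389 and 20662. The highest value of any probe set on each LPS array lay between 24168.5 and 28242. Cxcl2 thus lay near the top of the scale, and whether differences are compressed there was not tested.

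Cxcl3 (1438148_at; Dcip1, a further ligand of the cluster) measured 8309 with LPS and 16.5 in medium. The medium value is under the floor, so the level with LPS was at least 278-fold higher. Among the members it had the highest ratio.

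Cxcl5 (1419728_at; LIX, a chemokine known mainly from epithelial and stromal cells) measured 68.2 with LPS and 2.79 in medium, at least 2.28-fold higher. Cxcr2 (1421734_at), the receptor, measured 47.0 with LPS and 8.34 in medium, at least 1.57-fold higher. Both ratios are lower bounds, and neither bound reached the 4-fold ratio by which a probe set was counted as induced. The Cxcl5 log2 ratio passed 4-fold with the floor at the 25th percentile (2.33), with log2 of the value plus 16 (2.16) and with the values as deposited (2.87), and that of Cxcr2 did with the values as deposited (2.33).

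By that rule 5 of the 7 probe sets, those of Cxcl1, Cxcl2 and Cxcl3, were induced in the LPS pair, beside 0.986% of the 29115 that exceeded the floor with LPS or in medium. At least 4-fold lower were 0 members, beside 0.598%. With 1 array per condition no test applies. The same 5 also lay at least 4-fold above medium on each of the 3 wild-type LPS arrays (0.386% of 33134 probe sets) and on each of all 5 LPS arrays (0.242% of 34684). All of these ratios share the medium array.

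**Figure D2:**
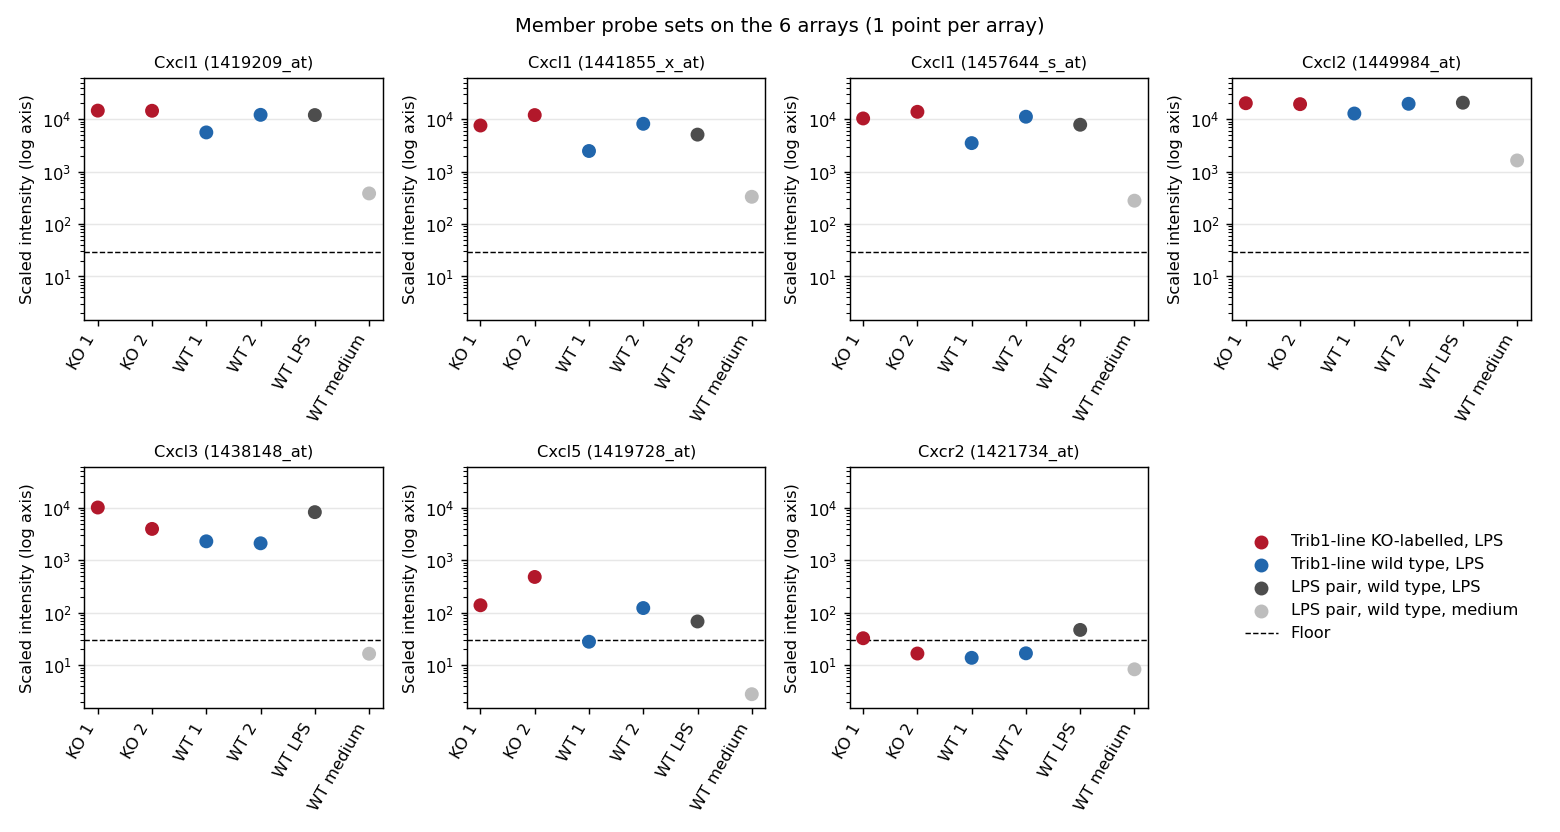
Scaled intensity (log axis) of the 7 probe sets on the 6 arrays, 1 point per array, with the floor of 29.9 as a dashed line. The 5 probe sets of Cxcl1, Cxcl2 and Cxcl3 lie far above medium on all 5 LPS arrays, Cxcl5 crosses the floor, and Cxcr2 stays near it.

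A test of LPS was possible only with the 3 wild-type LPS arrays set against the single medium array, which has no spread of its own and is assumed to vary like them. Of the 3, 1 belongs to the pair of the medium array and 2 come from the Trib1 series, so LPS and series cannot be told apart for those 2. The log2 difference was 4.60 (SE 0.59) for Cxcl1 by 1419209_at, 3.41 (SE 0.38) for Cxcl2 and, with medium set to the floor, 6.84 (SE 1.00) for Cxcl3, with adjusted p = 0.228, 0.212 and 0.257 by limma with Benjamini-Hochberg adjustment over 33134 probe sets. None of the 7 passed, and 0% of all probe sets were called higher, while at an unadjusted p under 0.05 the count was 5 of the 7, beside 3.1% of all. When probe sets had to lie above the floor on at least 2 of these 4 arrays, a filter chosen after the data were seen, the adjusted p of these 3 was 0.0313 each by limma, beside 0.158% of 28430 probe sets called higher. Cxcl3 met that filter through its LPS arrays alone, and the limits of the single medium array hold here too. The other Cxcl1 probe sets then had adjusted p = 0.0781 (1441855_x_at) and 0.0537 (1457644_s_at), and Cxcl5 had a log2 difference of 1.08 (SE 0.76, adjusted p = 0.802). With log2 of the value plus 16 and no floor, all 5 probe sets of Cxcl1, Cxcl2 and Cxcl3 passed, with limma adjusted p between 0.00325 and 0.0189. Of all 33134 probe sets tested, 156 were then called higher.

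The LPS arrays differed among themselves. By 1419209_at, Cxcl1 was 38.0- and 37.7-fold above medium on knockout-labelled 1 and 2, 14.6- and 31.6-fold on wild type 1 and 2, and 31.3-fold in the LPS pair. Wild type 1 was the lowest of the 5 LPS arrays for 5 of the 7 probe sets, beside 11.4% of the 34185 probe sets above the floor on any LPS array. For Cxcl3 wild type 2 was lowest, and for Cxcr2 the 3 arrays under the floor have no order. The highest LPS array over the lowest was 1.61-fold for Cxcl2, 2.61- to 4.85-fold for the Cxcl1 probe sets, 4.82-fold for Cxcl3 and at least 16.1-fold for Cxcl5.

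Between genotypes after LPS, the 6 probe sets of the ligands all averaged higher on the knockout-labelled arrays than on the wild-type arrays, by 1.24- to 4.27-fold, and none passed the test. A difference above 0 was found for 49.3% of all probe sets tested. The difference was smallest for Cxcl2, which lay near the top of the scale. The order of the others changed when 1 array was left out. The labels set these groups up as Trib1 knockout against wild type, and each direction below is that of the labels, which Trib1 itself did not check.

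Cxcl5 measured 139.0 and 481.9 on the knockout-labelled arrays, against 28.0 and 123.0 on the wild-type arrays. Every knockout-labelled value lay above every wild-type value, also above the 68.2 of the LPS pair, but the lower knockout-labelled value was close to the higher wild-type value. With wild type 1 set to the floor the difference was 2.09 on the log2 scale (4.27-fold, SE 0.86, 95% interval -0.05 to 4.24; limma, Benjamini-Hochberg adjusted p = 0.999). It was 1.07 without wild type 1, 3.11 without wild type 2, 2.99 without knockout-labelled 1 and 1.20 without knockout-labelled 2, and passed in none of these.

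Cxcl3 measured 10184 and 3977 on the knockout-labelled arrays, against 2305 and 2114 on the wild-type arrays. The groups did not overlap, and the knockout-labelled arrays differed from each other by more than the wild-type arrays did. The log2 difference was 1.53 (2.88-fold, SE 0.43, 95% interval 0.45 to 2.60; limma, adjusted p = 0.918). In the LPS pair, wild-type cells with LPS gave 8309, between the knockout-labelled values. Without knockout-labelled 2 the difference was 2.21 and passed (limma, adjusted p = 0.00331), with the lone array assumed to vary like the wild-type arrays, and without knockout-labelled 1 it was 0.85 (adjusted p = 0.633).

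Cxcl1 measured 14595 and 14487 on the knockout-labelled arrays by 1419209_at, against 5599 and 12124 on the wild-type arrays. The groups did not overlap, and both knockout-labelled values also lay above the 12004 of the LPS pair. The log2 difference was 0.82 (1.76-fold, SE 0.37, 95% interval -0.09 to 1.73; limma, adjusted p = 0.999). By 1441855_x_at the knockout-labelled arrays gave 7587 and 11996, against 8179 for wild type 2 and 2476 for wild type 1, so the groups overlapped. By 1457644_s_at they gave 10342 and 13842, against 11160 for wild type 2 and 3502 for wild type 1, again with overlap. Much of the Cxcl1 difference lay in wild type 1: without that array the log2 difference was 0.26, 0.22 and 0.10 for 1419209_at, 1441855_x_at and 1457644_s_at.

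Cxcl2 measured 20202 and 19389 on the knockout-labelled arrays, against 12844 and 19688 on the wild-type arrays. The groups overlapped, and wild type 1 alone stood apart. The log2 difference was 0.32 (1.24-fold, SE 0.24, 95% interval -0.29 to 0.92; limma, adjusted p = 0.999), and 0.01 without wild type 1.

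Cxcr2 measured 32.6 and 16.7 on the knockout-labelled arrays, against 13.8 and 16.8 on the wild-type arrays. Only knockout-labelled 1 was above the floor of 29.9, and by a small margin. It was not tested, since fewer than 2 of the 4 arrays passed the filter, and no genotype difference was measurable at this signal.

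Of the 6 probe sets tested, 0 passed and 0% of the 29078 tested were called in either direction (limma, Benjamini-Hochberg adjusted p under 0.05). At an unadjusted p under 0.05, Cxcl3 was counted as higher, beside 2.28% of the 29078 probe sets tested. In 3 of the 6, those of Cxcl5, Cxcl3 and Cxcl1 (1419209_at), both knockout-labelled arrays lay above both wild-type arrays, beside 15.4% of all, and in 2 of the 6, without Cxcl3, above all 3 wild-type LPS arrays, beside 10.9%. The 3 Cxcl1 probe sets are readings of 1 gene. With 2 arrays per genotype, the smallest two-sided p of an exact permutation test is 0.333. The limma test above did not use the number that each knockout-labelled title shares with a wild-type title. A fit with that number as a block is given in the closing section.

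**Figure D3:**
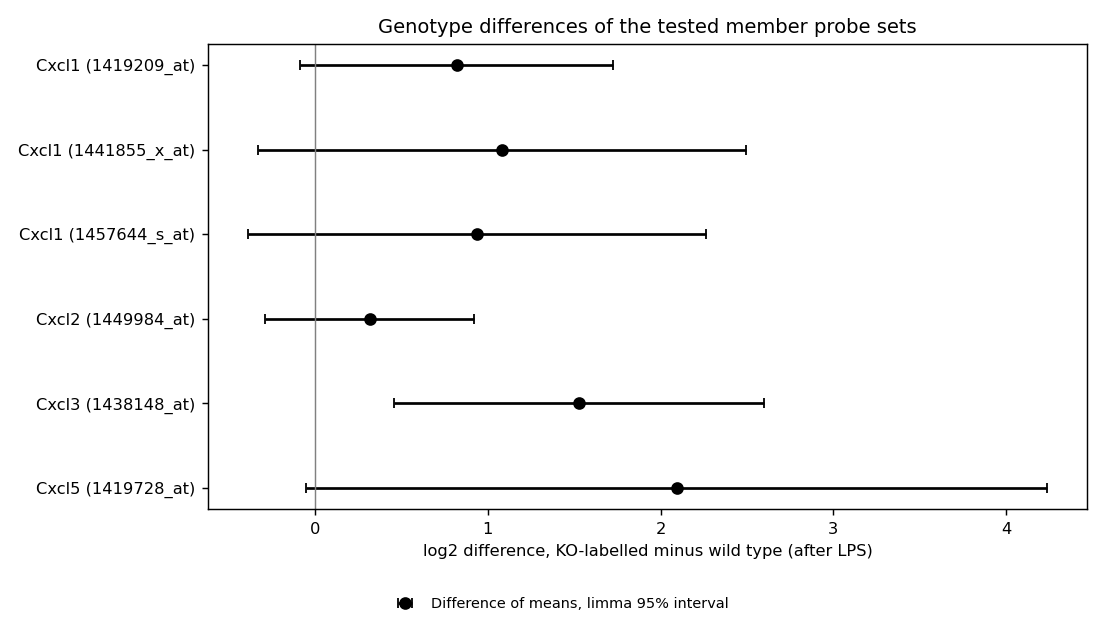
Log2 difference between knockout-labelled and wild-type Trib1-series arrays after LPS (n = 2 each) for the 6 ligand probe sets tested. Points are differences of means and bars are limma 95% intervals; all 6 points lie above 0, and the interval of Cxcl3 alone lies wholly above it.

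Summed markers of other cell types differed between genotypes beside these genes, and in bulk RNA a change in the share of such cells cannot be told from a change in RNA per cell. Of 14 neutrophil markers with a probe set, 14 and 12 lay above the floor on the knockout-labelled arrays, against 10 and 12 on the wild-type arrays. Their summed scaled intensity was 37470 and 27168 on the knockout-labelled arrays, against 17406 and 19050 on the wild-type arrays, and 0 of the 14 passed the test. The highest member was Fpr2, a formyl peptide receptor gene, at 15664 and 16096 against 13370 and 15487, which was also 16.7-fold higher with LPS than in medium in the LPS pair. S100a9 measured 6906 on knockout-labelled 1 and 205.6 on knockout-labelled 2, and lay under the floor on both wild-type arrays. S100a8 measured 8853 and 7314 against 1251 and 1238, and Mmp8, neutrophil collagenase, 2587 and 713.6 against 212.1 and 121.8. Most of the genotype difference in the neutrophil sum lay in S100a8 and S100a9. Granule protein genes differed in direction: Camp measured 219.9 and 66.9 against 11.0 and 7.03, and Ltf 40.2 and 12.7 against 87.0 and 87.2. Cd177 was also lower, at 53.4 and 58.5 against 83.6 and 121.0. Of the 14 markers, both knockout-labelled arrays lay above both wild-type arrays in 7 and below both in 2, Ltf and Cd177. The shares over all probe sets tested were 15.4% and 16.3%. Mpo and Elane, defining for neutrophil precursors, lay between 64.4 and 95.5 on all 4 arrays.

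Of 12 mesothelial and stromal markers, 8 and 11 lay above the floor on the knockout-labelled arrays, against 9 and 8 on the wild-type arrays. Their sum was 14371 and 16666, against 7393 and 6416. Pdpn, which LPS-treated macrophages can also express, made up most of each sum, at 12532 and 12270 against 6118 and 4849. Both knockout-labelled arrays lay above both wild-type arrays in 5 of the 10 markers tested and below both in 0. The shares over all probe sets tested were 15.4% and 16.3%. The collagen gene Col1a1 measured 239.2 and 861.8 against 146.8 and 140.3, so knockout-labelled 2 was the highest of these arrays for Col1a1 as it was for Cxcl5. In others the groups overlapped: Pdgfra measured 53.8 and 122.8 against 82.2 and 117.1, and Lum 25.6 and 38.8 against 33.9 and 34.0. Wt1 measured 39.9 and 26.0 against 45.3 and 27.9. Mast cell markers summed to 677.9 and 427.7, against 873.6 and 1380. Of these, Hdc went the other way on knockout-labelled 1, at 373.1 and 17.3 against 28.2 and 24.3. T and NK cell markers summed to 601.0 and 714.7 against 2116 and 2113 (without Klrk1, the highest of them, to 370.7 and 451.4 against 445.3 and 628.4). B cell markers summed to 493.1 and 923.8 against 905.6 and 1781, and endothelial markers to 479.7 and 688.9 against 527.1 and 696.5. Among markers tested, both knockout-labelled arrays lay below both wild-type arrays in 5 of 6 for mast cells. The same held in 3 of 6 for T and NK cells and 4 of 7 for B cells, with 0 above in each of these lists. Of 5 endothelial markers tested, 1 lay above and 0 below. Cd4 and Tie1 were the markers under the floor on all 6 arrays. The part of these cells in the chemokine differences was not tested.

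**Figure D4:**
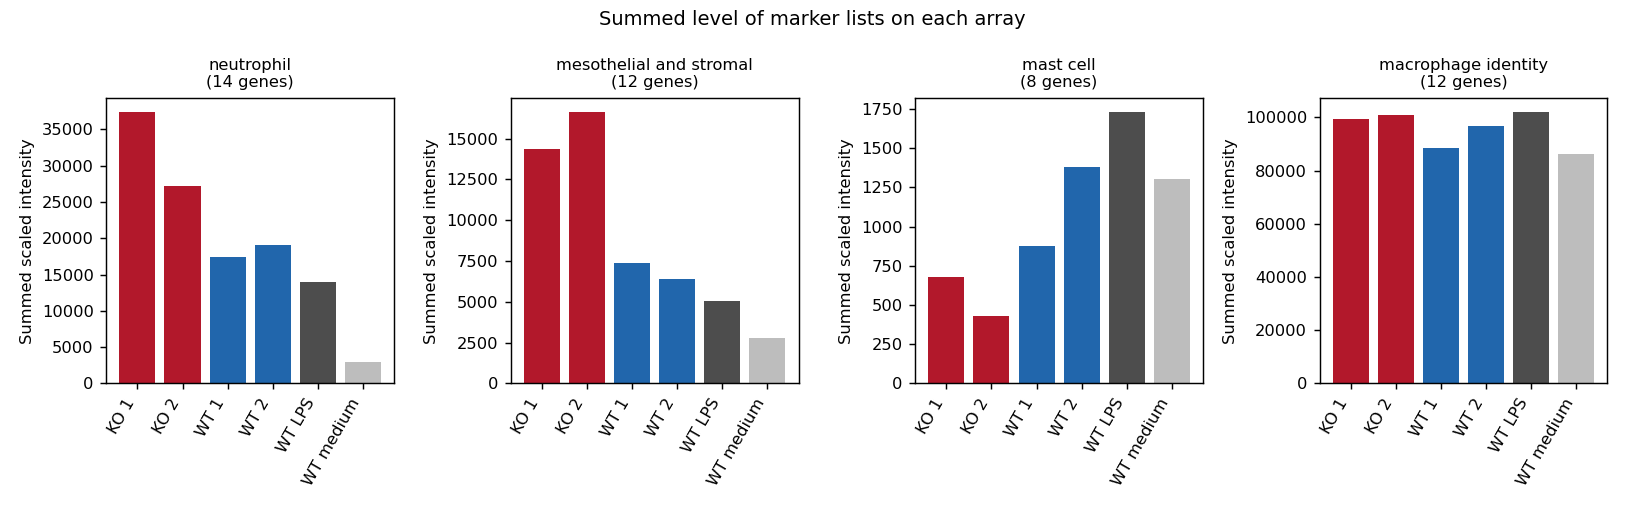
Summed scaled intensity of 4 marker lists on each array, as bars from 0, with knockout-labelled arrays in red, wild-type Trib1-series arrays in blue and the LPS pair in grey. Neutrophil and mesothelial or stromal sums are higher on both knockout-labelled arrays, mast cell sums are lower, and macrophage sums lie between 86369 and 102235. Most of each mesothelial and stromal sum is Pdpn, and most of the genotype difference in the neutrophil sum is S100a8 and S100a9.

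The other genes of the pathway were counted by the same 4-fold rule in the LPS pair. Of 10 other CXC chemokine genes above the floor, Cxcl11, a ligand of CXCR3, was induced (5.18-fold). The median log2 ratio was 0.08, beside -0.09 over all probe sets. Cxcl9 and Cxcl10 were already at 15031 and 14340 in medium and measured 23276 and 18061 with LPS. The highest value of any probe set on that LPS array was 28242, so the 4-fold rule could not count them as induced. Ppbp, Pf4 and Cxcl15, which lie in the same cluster as the members, did not reach 4-fold higher: Ppbp measured 3.64 with LPS and 40.2 in medium, Pf4 6486 and 5924, and Cxcl15 17.5 and 19.9, both under the floor. Of 8 other CXC and atypical receptor genes, 0 were induced (median 0.42), and of 13 genes that carry CXCR2 signals, 0 (median -0.12). Among 13 genes of TLR4 and NF-kB signalling, 2 were induced (median 0.52). These were Nfkbiz, an NF-kB cofactor, 6.60-fold, and Il17ra, a receptor for interleukin 17, which stabilises Cxcl1 messenger RNA, 4.62-fold. Nfkbia, at 16483 in medium and 23625 with LPS, was also too high in medium to be counted as induced. Among 10 genes that act in the decay or stability of chemokine messenger RNAs, Zc3h12a, an endonuclease that cuts inflammatory transcripts, was induced 7.14-fold (median 0.02).

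Between genotypes 0 genes of these lists passed the test (limma, Benjamini-Hochberg over all probe sets), and medians of log2 differences lay between -0.15 and 0.39, beside -0.01 over all. Over all probe sets tested, both knockout-labelled arrays lay above both wild-type arrays in 15.4% and below both in 16.3%. In the decay list they lay above in 4 of 10 genes and below in 0. Zc3h12a led by p with 1791 and 1854 on the knockout-labelled arrays, against 965.7 and 1041 on the wild-type arrays (log2 0.86, SE 0.17, adjusted p = 0.818), followed by Zfp36l1, an AU-rich element binding protein gene (0.85, SE 0.35). In the TLR4 and NF-kB list 5 of 13 were above and 0 below, led by Cd14, the LPS co-receptor gene (0.58, SE 0.17), and Il17ra (0.88, SE 0.27), each with adjusted p = 0.950. Il17ra measured 2348 and 1807 on the knockout-labelled arrays, against 897.0 and 1404 on the wild-type arrays, where wild type 1 was again the lowest. The receptor list had 1 of 8 above and 3 below, led by Cxcr5 (-0.90, SE 0.34) and Cxcr4 (0.56, SE 0.26). Of the signal carriers 2 of 13 were above and 1 below, led by Grk6 (0.43, SE 0.27) and Arrb2 (0.56, SE 0.36), which encode a receptor kinase and an arrestin, and of the other CXC chemokines 1 of 10 and 0, led by Cxcl13 (-1.07, SE 0.79) and Cxcl12 (0.72, SE 0.57).

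**Figure D5:**
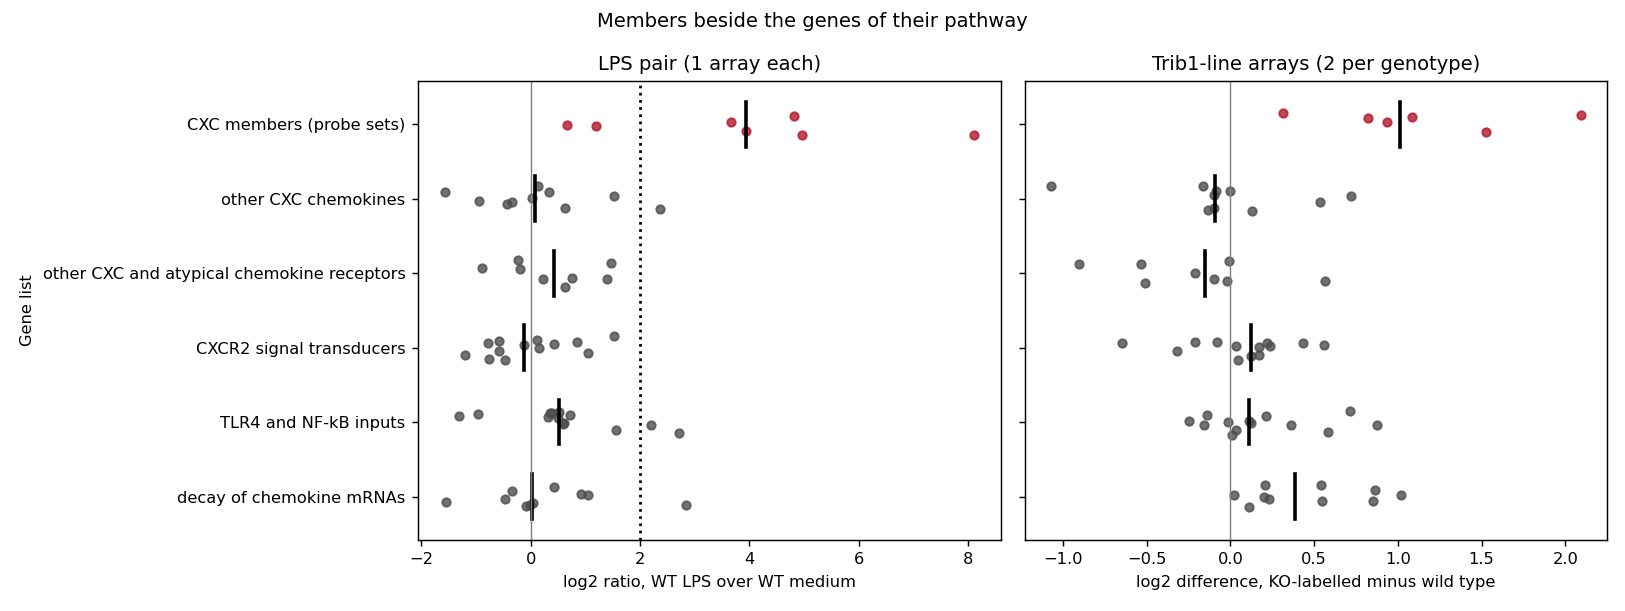
The member probe sets (red) beside the genes of 5 pathway lists (grey), 1 point per probe set or gene, with black bars for medians. The left panel shows the log2 ratio of LPS over medium (1 array each, dotted line at 4-fold). The right panel shows the log2 difference between knockout-labelled and wild-type arrays. In the left panel 5 member probe sets, of Cxcl1, Cxcl2 and Cxcl3, lie beyond 4-fold, with at most 2 genes of any other list.

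The genes most like each member across the 6 arrays were found among 2020 probe sets with a range of at least 4-fold, by Pearson r of log2 values. These 6 arrays hold 1 medium array, so genes high on all LPS arrays correlate by that alone. Cxcl1 was nearest to Tnfsf9 (r = 0.996), Cxcl2 (0.995) and Nos2 (0.992), and Cxcl2 to Il1b (0.999), Il1a (0.998) and Clec4e (0.997). Wild type 1 was the lowest LPS array for each of these. Il1b measured 19947 and 19565 on the knockout-labelled arrays, 11466 and 19275 on the wild-type arrays, 21197 on the LPS array and 306.1 in medium.

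Cxcl3 was nearest to Plpp3 (0.994), Clec4e (0.979) and Tnip1 (0.978). Plpp3, a lipid phosphatase gene, measured 4981 and 4526 on the knockout-labelled arrays, 3102 and 3138 on the wild-type arrays, 5266 on the LPS array and 754.3 in medium, with both wild-type Trib1-series arrays low as for Cxcl3. Cxcl5 was nearest to Met (0.980), Cd1d1 (0.970) and D16Ertd472e (0.968). Met, a receptor tyrosine kinase gene, measured 531.9 and 1496 on the knockout-labelled arrays, 143.3 and 524.2 on the wild-type arrays, 274.5 on the LPS array and 80.9 in medium, so knockout-labelled 2 stood highest as for Cxcl5. Cxcr2, measured above the floor on 2 arrays only, was nearest to Cish (0.991), Vasn (0.976) and Rhob (0.971), all of them highest with LPS in the LPS pair.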

How the data were processed

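RNA levels of 6 macrophage samples were taken from the deposited table, whose linear intensity per probe set the authors made with MAS5 per the submitters' processing notes, with version and scaling target not given in the sources used here. The 64 control probe sets were left out, and 45037 remained: 34945 name 1 gene, 932 several and 9160 none. Symbols were updated through gene identifiers.

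Each array was scaled to a common mean without the lowest and highest 2%, values under the floor (pooled 40th percentile) were set to it, and log2 was taken. Signal over background and the number of arrays limit precision. Groups came from the sample titles. Genotypes (2 arrays each; filter: 2 or more of the 4 arrays over the floor) and LPS (3 wild-type LPS arrays against medium; filter: 1 or more) were tested in limma 3.58.1 (R 4.3.3; eBayes with trend), two-sided, Benjamini-Hochberg adjusted over all probe sets, threshold 0.05. For the genotype comparison the residual degrees of freedom were 2 and the prior 3.68. Lists use the probe set with the highest mean per gene. Named genes were all members, the 3 nearest by correlation, and per pathway list those past a rule or else the 2 with the smallest p. Other named genes, among them most cell type markers and Ppbp, Pf4 and Cxcl15, were picked outside this rule. Members and lists were chosen with earlier results of these data known. Alternatives were other scalings, floors, filters and priors, an added or left-out array, 1 probe set per gene and other fold rules. Python 3.11.15, numpy 2.4.6, pandas 2.3.3 and matplotlib 3.10.9 were used.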

Additional observations from a re-analysis of the deposited data

How the results depend on the processing

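The genotype difference stayed above 0 for each of the 6 ligand probe sets under every alternative run, and 0 members passed except Cxcl3 without knockout-labelled 2 (leaving out 1 array gave between 0 and 1 member called). Over all probe sets, leaving out 1 array gave between 5 and 68 called, and the number of the labels as a replicate block gave 116 (85 higher, 31 lower), with 0 members; Cxcl5 then had adjusted p = 0.0528 and Cxcl3 0.0880 (limma). The titles give each knockout-labelled array the same number as 1 wild-type array, but do not say what the number stands for. Same-numbered arrays deviated together (r = 0.35 across probe sets).

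For the 3 wild-type LPS arrays against medium, the count of member probe sets called, 0, became 3 with the filter of at least 2 arrays. It became 5 with log2 of the value plus 16. The count over all probe sets of 0 became 48 and 200 under these, 959 with no filter, and 3642, all lower, with the values as deposited, whose scales differ between the arrays (median difference -1.32). In the LPS pair between 5 and 7 member probe sets were induced under the alternatives, 7 of them with the values as deposited. The count over all probe sets of 461 became 1605 as deposited, 966 with the floor at the 25th percentile, 3293 at 2-fold, 99 at 8-fold and 936 with wild type 2 in place of the LPS array. Cxcl3, Cxcl5 and Cxcr2 ratios rest on the floor and moved with it. The causes of the other changes were not tested.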
